A study of Mus musculus with 12 samples.

Results

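The TNF superfamily ligands that T cells make were followed in donor CD4+ T cells primed in WT or *Il6*-/- recipients. The 10 genes, chosen by symbol from the 40840 gene symbols counted in each library, were *Lta*, *Ltb*, *Tnf*, *Fasl*, *Tnfsf10*, *Tnfsf11*, *Cd40lg*, *Tnfsf8*, *Tnfsf14* and *Cd70*. The choice was by name, with earlier results of these data known. Of the 10, 9 had enough counts to be tested, and *Cd70* did not.

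OTII donors supply CD4+ T cells whose transgenic antigen receptor recognizes a peptide of ovalbumin (OVA), and these cells were moved into congenic recipients, either WT (C57BL/6J) or *Il6*-/- (B6.129S2-IL-6tm1Kopf/J). All recipients were then given, by daily dosing, house dust mite (HDM) extract with endotoxin together with OVA through the nose, and the donor cells were sorted from the lung-draining mediastinal lymph nodes (mLNs) for RNA-seq on Day 3 or Day 5. Genotype by day gave 4 groups of 3 libraries: WT on Day 3, *Il6*-/- on Day 3, WT on Day 5 and *Il6*-/- on Day 5. Days are numbered as in GEO's labels, which by the design text count from 1, whereas the paper counts from 0. The donor cells carried the OTII transgenes in every group and differed only in the recipient that had primed them, so the *Il6* transcript of the sorted cells is no check of the labels. GEO's labels name blood as the tissue, whereas the design text and the methods name mLN, and the treatment label leaves out the endotoxin. The ages of the mice and the number of animals behind a library are not given in the sources used here, so p-values measure the spread between these libraries, which may be technical. There was no group of naive cells or of recipients that had not been sensitized.

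Ligands of the TNF superfamily are type II membrane proteins that assemble as trimers, and several of them are also shed or secreted. They act on receptors of the TNF receptor superfamily, which signal through TRAF adaptors to NF-kappaB or, where the receptor carries a death domain, through FADD and caspase-8 to apoptosis. In an activated CD4+ T cell they carry help to B cells and dendritic cells, shape lymphoid tissue, and limit the response by killing.

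Depth was 16125947 to 26111657 counts on genes per library, with a median of 19727354, so that 3 counts corresponded to 0.115 to 0.186 CPM, the count scaled to a fixed library size. For this range the library size was the total of counts on genes, without the scaling described below. Reads outside genes made up 11.7% to 12.9% of the reads on Day 3 and 15.2% to 17.3% on Day 5. CPM of genes was computed over library sizes scaled by the trimmed mean of M values (TMM). An FDR is the Benjamini-Hochberg value of the edgeR quasi-likelihood test over 13570 genes, called at an FDR under 0.05. The summed level of 6 CD4 T cell markers was 3390 to 3788 CPM in WT and 3094 to 3173 CPM in *Il6*-/- on Day 3, and 5349 to 5879 and 4678 to 5514 CPM on Day 5. Of these 6, *Trbc1* varied widely within a group, from 5.56 to 543 CPM in WT and 5.16 to 532 CPM in *Il6*-/- on Day 5. The cause was not tested. The summed level of 8 B cell markers was 5.50 to 11.8 CPM, with *Ms4a1*, the CD20 gene, at a mean of 0 to 0.104 CPM in the 4 groups. That of 10 myeloid and dendritic cell markers was 15.4 to 53.7 CPM, and that of 5 lung epithelium markers 0.475 to 20.7 CPM. The sum of 4 regulatory T cell markers was 75.5 to 84.2 CPM in WT and 51.7 to 64.0 CPM in *Il6*-/- on Day 3, and 100 to 117 and 87.7 to 106 CPM on Day 5. Most of this sum was *Ikzf2*, with means of 51.2 to 106 CPM in the 4 groups. *Foxp3* did not follow the sum, with means of 7.60 CPM in WT and 5.08 in *Il6*-/- on Day 3, and 2.84 and 4.68 on Day 5. The part of these cell types in the ligand results was not tested.

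Across groups, the most abundant ligand transcript per kb of exon was *Ltb*. In WT cells on Day 3, the mean level per kb of exon was 171 CPM for *Ltb*, 65.9 for *Cd40lg*, 34.6 for *Tnfsf11*, 26.5 for *Lta*, 15.6 for *Tnfsf8*, 10.4 for *Tnf*, 7.20 for *Tnfsf14*, 1.42 for *Tnfsf10*, 0.575 for *Fasl* and 0.0154 for *Cd70*, and the libraries of neighbours in this order did not overlap. In *Il6*-/- recipients on Day 3 the order held except that *Lta* (55.3 CPM per kb) stood above *Tnfsf11* (53.9), and these overlapped, as did *Tnfsf10* (1.89) and *Fasl* (1.41). By Day 5 the order was different. *Ltb* stood at 426 CPM per kb in WT and 378 in *Il6*-/-, followed by *Tnfsf11*, *Cd40lg* and *Tnfsf8*, which lay between 62.3 and 76.8 CPM per kb and each overlapped the next. *Lta* followed at 37.3 and 48.7 CPM per kb and *Tnf* at 24.1 and 19, clear of their neighbours. *Fasl* (11.2 and 9.75) now stood above *Tnfsf10* (1.28 and 2.03) and next to *Tnfsf14* (12.8 and 13.3), which it overlapped in WT but not in *Il6*-/-. Exon lengths were those of GENCODE vM39.

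**Figure D1:**
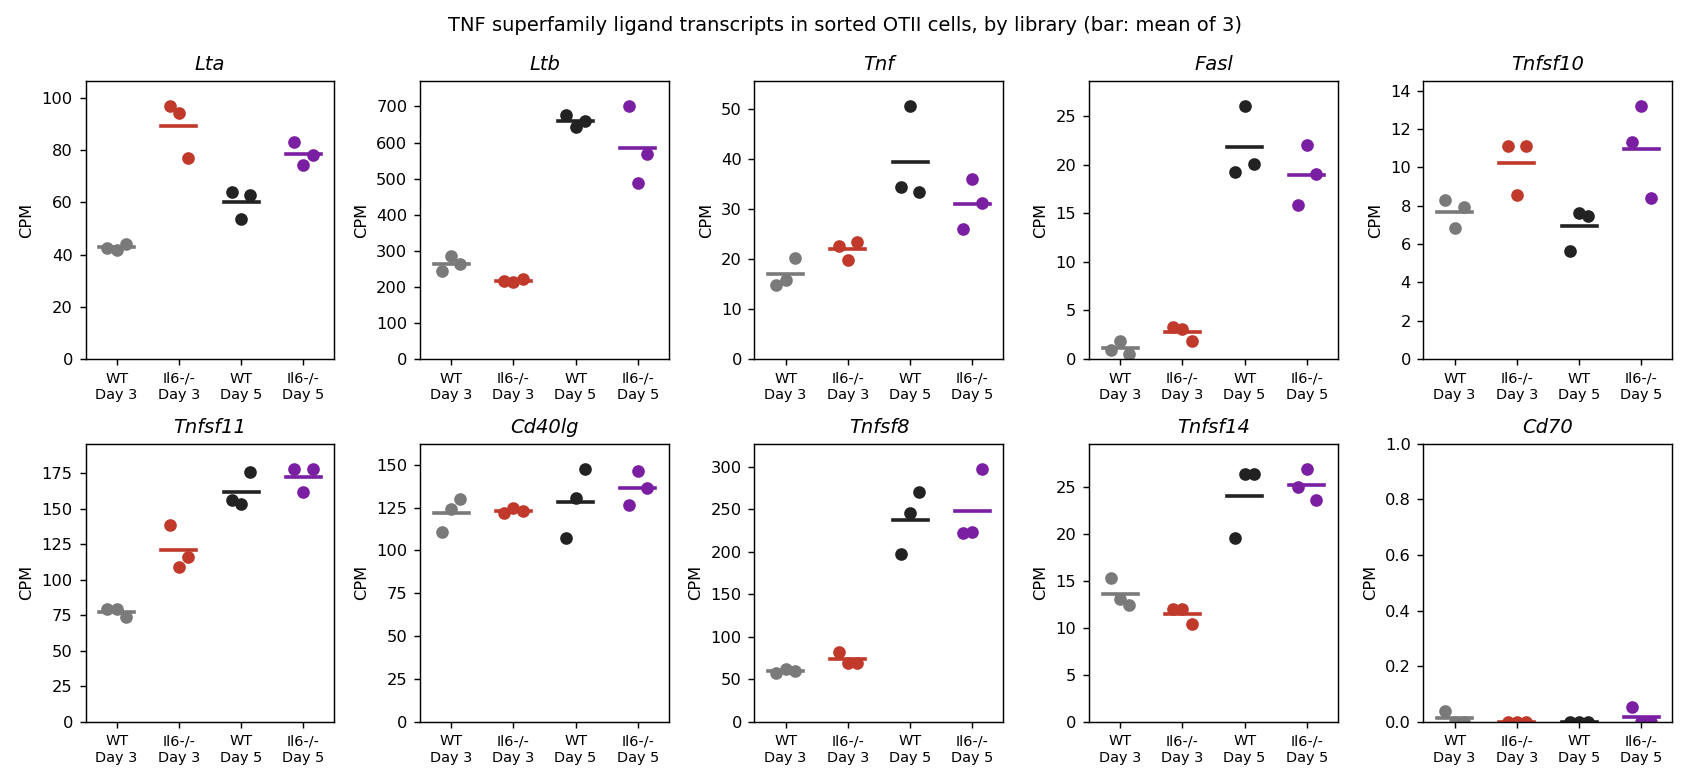
CPM of the 10 ligand genes (y axis, linear, 1 panel per gene) in the 4 groups (x axis), with 1 point per library and a bar at the mean of 3. *Lta*, *Tnfsf11* and *Fasl* were higher in *Il6*-/- than in WT on Day 3 in every library, *Cd40lg* lay between 107 and 148 CPM throughout, and *Cd70* was at or near 0.

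Comparing recipients on Day 3 asks which ligand transcripts differed with recipient IL-6 early in priming. The transcripts of *Lta*, *Fasl* and *Tnfsf11* were higher in cells from *Il6*-/- recipients, by 2.09-, 2.43- and 1.56-fold. Of the 9 ligands tested, 3 were called higher and 0 lower, where 7.52% of the 13570 genes were called higher and 6.19% lower. At an unadjusted p under 0.05, 5 were higher and 1 lower in edgeR, where the largest of these p (0.046, *Tnf*) ranked 3527 among the 13570 genes. Called counts were 3 and 0 in DESeq2 and 2 and 0 in limma-voom, for which the shares over all genes were not computed. The median log2 fold change (log2FC) of the 9 was 0.38, against 0.01 over all genes. In bulk libraries, less RNA per cell cannot be told apart from fewer cells of the type that carries the transcript.

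On Day 5, 1 of the 9 ligands was called higher in *Il6*-/-, *Lta* (1.31-fold), where 1.27% of genes were called higher and 3.35% lower, and 0 were called lower. At an unadjusted p under 0.05, 2 were higher and 0 lower in edgeR, and DESeq2 called 2 higher and 0 lower. The median log2FC of the 9 was 0.06, against 0.01 over all genes. With replicate number as a block, whose numbers were taken to pair the libraries of Day 5, 2 were called: *Lta* and *Tnfsf10*. Shares over all genes were not computed for DESeq2 or the block. An interaction term compared the genotype difference of Day 3 with that of Day 5, and 2 of 9 were called in it, *Lta* and *Tnfsf11*, where 4.92% of all genes were called. Its median over the 9 was 0.24, against -0.0045 over all genes.

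**Figure D2:**
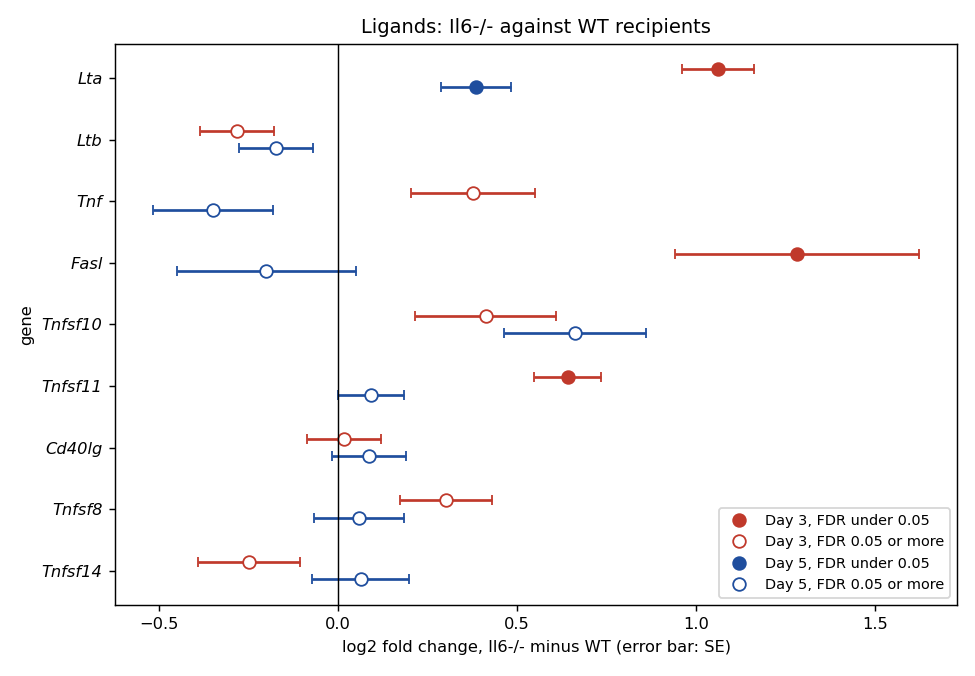
Log2 fold change of the 9 ligands tested, *Il6*-/- minus WT (x axis, error bars are SE), on Day 3 (red) and Day 5 (blue), with filled points at an FDR under 0.05. On Day 3, *Fasl* (1.28), *Lta* (1.06) and *Tnfsf11* (0.64) are filled, and on Day 5 *Lta* (0.39) is the filled point.

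Between the days, most of the ligands rose in both kinds of recipient. From Day 3 to Day 5 in WT recipients, 7 of 9 were called higher, where 29.5% of all genes were called higher and 27.1% lower, and the median log2FC was 1.06 against 0.09 over all genes. In *Il6*-/- recipients 6 of 9 were called higher, where 30.4% of all genes were called higher and 30.1% lower, with a median of 0.51 against 0.09. None of the 9 was called lower in either, by edgeR, DESeq2 or limma-voom or at an unadjusted p under 0.05. These comparisons share groups, so their values are given side by side and are not independent of each other.

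*Lta*, *Tnf* and *Ltb* lie side by side on chromosome 17 in the MHC region. *Lta* encodes lymphotoxin alpha, which is secreted as a homotrimer that binds the TNF receptors or is held at the membrane by lymphotoxin beta, the product of *Ltb*, as a heterotrimer that binds the lymphotoxin beta receptor. On GRCm39, *Ltb* is at chr17:35413382-35415296 on the plus strand, *Tnf* at chr17:35418357-35420983 and *Lta* at chr17:35422141-35424327, both on the minus strand, with 3061 bases between *Ltb* and *Tnf* and 1158 between *Tnf* and *Lta*. Their exons overlapped no other counted gene. The counting did not use strand, and 22.9% of the exon length of *Ltb* is shared with Gm65873, an antisense RNA outside the counted set, so reads from it and from *Ltb* cannot be told apart.

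*Lta* was the ligand called between recipients on both days. The 3 WT libraries of Day 3 had 42.5, 41.7 and 44.0 CPM of *Lta*, and the 3 *Il6*-/- libraries 96.7, 94.0 and 77.1 CPM. On Day 5, the WT libraries had 64.0, 53.6 and 62.8 CPM and the *Il6*-/- libraries 83.3, 74.4 and 78.2 CPM. The groups overlapped on neither day, and the 3 WT libraries of Day 3 were the lowest of the 12. The log2FC between recipients was 1.06 (SE 0.10, FDR = 1.3e-05) on Day 3 and 0.39 (SE 0.10, FDR = 0.037) on Day 5, and these differed by 0.68 (SE 0.14, FDR = 0.015). The Day 5 call was lost in 5 of 6 fits with 1 library omitted: its FDR was 0.072 without WT replicate 1, 0.14 without WT replicate 2, and 0.069, 0.0503 and 0.085 without *Il6*-/- replicates 1, 2 and 3. Those fits did not use replicate number. With replicate number as a block, *Lta* was called on Day 5, and in the libraries of Day 5 alone it was not. For the difference between the days, the FDR was 0.051 without *Il6*-/- replicate 1 of Day 3 and 0.051 without its replicate 2. From Day 3 to Day 5, *Lta* rose in WT (log2FC 0.49, SE 0.10, FDR = 6.3e-04) and was called neither way in *Il6*-/- (-0.18, SE 0.10, FDR = 0.12), where leaving out replicate 3 of Day 3 gave -0.29 (FDR = 0.022). Counts of *Lta* were 811 to 1832 per library.

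*Ltb* was called between recipients on neither day. Its levels on Day 3 were 245, 284 and 263 CPM in WT and 217, 214 and 221 CPM in *Il6*-/-, which lay below WT without overlap. The log2FC of -0.28 (SE 0.10, FDR = 0.088) was not called, whereas the FDR was 0.023 with no low-count filter, 0.041 with no scaling beyond library totals, 0.022 with replicate number as a block and 0.0040 in the 6 libraries of Day 3 alone. On Day 5, WT had 675, 643 and 661 CPM and *Il6*-/- 701, 488 and 567 CPM, which overlapped (log2FC -0.17, SE 0.10, FDR = 0.38). Without *Il6*-/- replicate 1, the highest library, this was -0.32 (FDR = 0.030). From Day 3 to Day 5, *Ltb* rose by 2.5-fold in WT (FDR = 9.8e-08) and 2.69-fold in *Il6*-/- (FDR = 3.9e-08).

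*Tnf* encodes the founding member of the family, an inflammatory cytokine of many cell types. It was present at 14.8, 15.9 and 20.2 CPM in WT and 22.7, 19.9 and 23.4 CPM in *Il6*-/- on Day 3. Day 5 libraries had 34.5, 50.6 and 33.5 CPM in WT against 26.0, 36.0 and 31.2 CPM in *Il6*-/-. Groups overlapped on both days. The log2FC between recipients was 0.38 (SE 0.17, FDR = 0.18) on Day 3 and -0.35 (SE 0.17, FDR = 0.27) on Day 5, and the difference between these, 0.72 (SE 0.24, FDR = 0.099), was not called. Between libraries of the same number, *Tnf* was higher in *Il6*-/- on Day 3 and lower on Day 5. The numbers were taken to pair the libraries of Day 5 only. With replicate number as a block, the FDR was 0.036 on Day 3, 0.075 on Day 5 and 0.013 for the difference, which was also called with no low-count filter (FDR = 0.0065). *Tnf* rose with day in WT (2.33-fold, FDR = 2.4e-05) and in *Il6*-/- (1.41-fold, FDR = 0.020), where the FDR was 0.081 without replicate 2 of Day 3 and 0.071 without replicate 2 of Day 5.

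**Figure D3:**
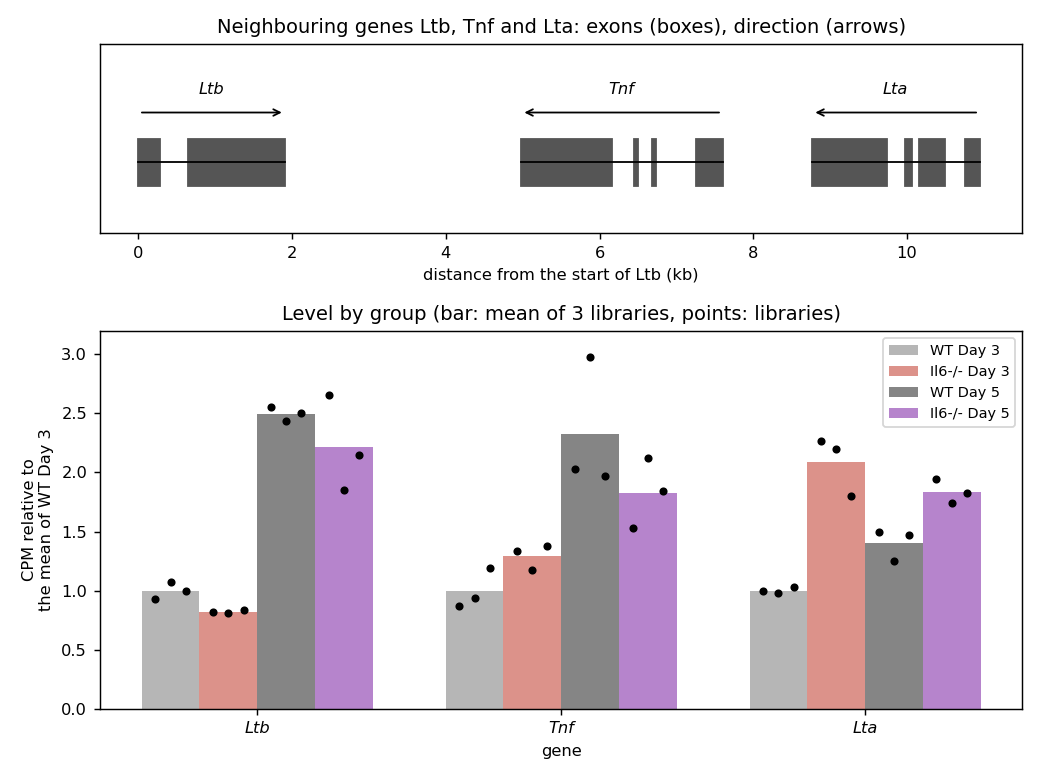
Top, the exons of *Ltb*, *Tnf* and *Lta* as boxes to scale against distance from the start of *Ltb* in kb, with arrows for the direction of transcription. Bottom, CPM of each gene relative to its mean in WT on Day 3 (y axis from 0), with bars for the mean of 3 libraries and points for libraries. *Lta* is highest in *Il6*-/- on Day 3 (mean 89.3 CPM against 42.7 in WT), whereas *Ltb* and *Tnf* are highest in the Day 5 groups.

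The sequences upstream of *Lta*, *Tnf* and *Fasl* are shown because *Lta* was called between recipients on both days, *Fasl* on Day 3, and *Tnf*, the neighbour of *Lta*, on neither. Each line gives the 250 bases before the RefSeq start, 5' to 3' on the gene's own strand, from RefSeq (GRCm38.p6) matched exactly to its chromosome of GRCm39. Capitals mark GGAAA, the core of NFAT sites, TTCNNNGAA, the palindrome that STAT dimers bind, and TATAAA, each searched on both strands.
*Lta* (GRCm39 chr17:35424328-35424577, minus strand): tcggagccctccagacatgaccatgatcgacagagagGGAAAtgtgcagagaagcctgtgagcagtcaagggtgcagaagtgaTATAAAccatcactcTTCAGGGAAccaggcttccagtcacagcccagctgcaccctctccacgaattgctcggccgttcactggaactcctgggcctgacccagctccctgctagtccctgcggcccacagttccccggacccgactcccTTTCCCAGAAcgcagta
*Tnf* (GRCm39 chr17:35420984-35421233, minus strand): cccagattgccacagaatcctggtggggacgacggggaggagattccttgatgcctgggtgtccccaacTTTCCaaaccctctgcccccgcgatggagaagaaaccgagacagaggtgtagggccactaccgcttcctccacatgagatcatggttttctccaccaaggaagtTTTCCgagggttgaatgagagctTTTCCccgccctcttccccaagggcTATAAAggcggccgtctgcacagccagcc
*Fasl* (GRCm39 chr1:161616065-161616314, minus strand): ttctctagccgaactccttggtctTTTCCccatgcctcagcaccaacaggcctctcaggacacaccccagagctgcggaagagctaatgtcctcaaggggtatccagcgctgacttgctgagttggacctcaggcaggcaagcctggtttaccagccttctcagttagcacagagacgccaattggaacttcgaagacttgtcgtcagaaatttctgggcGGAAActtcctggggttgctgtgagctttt
The *Lta* window held GGAAA 213 to 209 and TATAAA 167 to 162 bases upstream of the start. It held TTCNNNGAA 152 to 144 and 16 to 8 bases upstream, the latter of which shared bases with a GGAAA match 17 to 13 bases upstream. No TTCNNNGAA was in the *Tnf* or *Fasl* window, or in that of *Tnfsf11*, which was also called on Day 3 and is not shown. *Tnf* held GGAAA on the minus strand at 181, 77 and 54 bases and TATAAA at 29 bases upstream, and *Fasl* held GGAAA at 226 and 30 bases upstream. Of the 10 ligands, 8 had a window, and *Cd40lg* and *Cd70* had none. GGAAA was in 8 of 8 windows, against 55.6% of 32851 windows of this length, TTCNNNGAA in 2 of 8 (*Lta* and *Ltb*) against 7.02%, TATAAA in 3 of 8 against 12.4%, the AP-1 letters TGANTCA in 1 of 8 (*Tnfsf14*) against 6.75% and the NF-kappaB motif in 1 of 8 (*Ltb*, where it shared bases with GGAAA) against 7.25%. The RefSeq start lay inside the gene as annotated by GENCODE for *Ltb* (by 101 bases), *Tnfsf10* (193), *Tnfsf8* (71), *Fasl* (11) and *Tnfsf11* (7). The GGAAA and NF-kappaB matches of *Ltb*, 87 to 78 bases before the RefSeq start, thus lay within the annotated gene. So did the GGAAA of *Tnfsf10*, 134 to 130 bases before it. All matches describe the letters in the windows, and no binding was measured.

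*Fasl* (chr1:161608258-161616075, minus strand) encodes Fas ligand, which triggers apoptosis through Fas and limits T cell responses. It was the scarcest ligand tested on Day 3, with 24, 38 and 10 counts in WT (0.936, 1.88 and 0.543 CPM) and 62, 58 and 40 counts in *Il6*-/- (3.27, 3.08 and 1.90 CPM). By Day 5 the 3 WT libraries reached 19.3, 26.0 and 20.1 CPM and the 3 *Il6*-/- libraries 15.8, 22.1 and 19.1 CPM. On Day 3 every *Il6*-/- library was above every WT library, the closest being 1.88 CPM in WT and 1.90 CPM in *Il6*-/-, and on Day 5 the groups overlapped.

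The log2FC of *Fasl* between recipients was 1.28 on Day 3 (SE 0.34, FDR = 0.021) and -0.20 on Day 5 (SE 0.25, FDR = 0.73), and their difference, 1.48 (SE 0.42, FDR = 0.057), was not called. That difference was called with replicate number as a block (1.55, FDR = 0.0046), in DESeq2 (FDR = 0.0057), with no low-count filter (FDR = 1.9e-04), and without WT replicate 2 (2.04, FDR = 0.025) or *Il6*-/- replicate 3 (1.70, FDR = 0.044) of Day 3. Leaving out WT replicate 1 gave 1.15 (FDR = 0.075) on Day 3, WT replicate 3 gave 0.99 (FDR = 0.082), *Il6*-/- replicate 1 gave 1.14 (FDR = 0.087) and *Il6*-/- replicate 2 gave 1.20 (FDR = 0.075). The call was also lost in limma-voom (FDR = 0.070) and in the 6 libraries of Day 3 alone (FDR = 0.055). From Day 3 to Day 5, *Fasl* rose by 19.3-fold in WT (log2FC 4.27, SE 0.32, FDR = 5.9e-08) and by 6.92-fold in *Il6*-/- (log2FC 2.79, SE 0.29, FDR = 8.1e-07). In WT this was the largest change with day among the 9 ligands and its log2FC lay at percentile 99.7 of all genes.

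The summed level of 7 CD8 T and NK cell markers, cells that also express *Fasl*, was 62.9 to 74.5 CPM in WT and 83.6 to 114 CPM in *Il6*-/- on Day 3, and 91.6 to 111 and 86.6 to 101 CPM on Day 5. Of these markers, *Klrb1c* (the NK1.1 gene) was at a mean of 4.82 ± 0.957 CPM in WT and 20.9 ± 4.75 CPM in *Il6*-/- on Day 3 (SD, n = 3) and at 33.1 ± 3.15 and 21.9 ± 2.34 CPM on Day 5, and *Cd8b1* made up most of the rest. *Ncr1*, which defines NK cells, was at 0 in 3 groups and had a mean of 0.013 CPM in WT on Day 3, and the means of *Cd8a* were 0.0653 to 1.04 CPM. Their part in the *Fasl* result was not tested.

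*Tnfsf10* (chr3:27371033-27396576, plus strand) encodes TRAIL, which binds the death receptor TRAIL-R2. Its levels were 8.31, 6.82 and 7.93 CPM in WT and 11.1, 8.54 and 11.1 CPM in *Il6*-/- on Day 3. On Day 5 they were 5.65, 7.64 and 7.48 CPM in WT and 11.3, 13.2 and 8.38 CPM in *Il6*-/-. The *Il6*-/- libraries lay above those of WT on both days. The log2FC was 0.41 (SE 0.20, FDR = 0.19) on Day 3 and 0.66 (SE 0.20, FDR = 0.071) on Day 5, neither of them called. With replicate number as a block, the Day 5 value was 0.65 (FDR = 0.035), DESeq2 gave an FDR of 0.017, no low-count filter 0.033, and leaving out *Il6*-/- replicate 3 gave 0.82 (FDR = 0.044). *Tnfsf10* was called in neither day comparison (log2FC -0.15 in WT, FDR = 0.53, and 0.10 in *Il6*-/-, FDR = 0.68).

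*Tnfsf11* (chr14:78514885-78545490, minus strand) encodes RANKL, which acts through RANK on osteoclast precursors, dendritic cells and lymphoid stroma. WT cells had 79.2, 79.4 and 74.0 CPM on Day 3, and *Il6*-/- cells 139, 109 and 116 CPM. By Day 5, WT cells had 156, 153 and 175 CPM and *Il6*-/- cells 178, 162 and 178 CPM. All *Il6*-/- libraries were above all WT libraries on Day 3, and on Day 5 the groups overlapped. The log2FC between recipients was 0.64 (SE 0.09, FDR = 4.6e-04) on Day 3 and 0.09 (SE 0.09, FDR = 0.64) on Day 5, a difference of 0.55 (SE 0.13, FDR = 0.030). The Day 3 call was kept in all 6 fits that left out a library (log2FC 0.53 to 0.72). The call on the difference was lost in 5 of 12, with FDRs of 0.071 and 0.086 without WT replicates 2 and 3 of Day 3, 0.0501 without WT replicate 1 of Day 5, 0.075 without *Il6*-/- replicate 1 of Day 3 and 0.093 without *Il6*-/- replicate 2 of Day 5. With day, it rose by 2.08-fold in WT (FDR = 2.6e-07) and 1.42-fold in *Il6*-/- (FDR = 2.3e-04).

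None of *Cd40lg*, *Tnfsf8* and *Tnfsf14*, ligands of helper function and costimulation, was called between recipients on either day. *Cd40lg* (chrX:56257405-56269902, plus strand) encodes CD40 ligand, the signal by which helper T cells license B cells and dendritic cells. On Day 3 the WT libraries had 111, 124 and 130 CPM of it and the *Il6*-/- libraries 122, 125 and 123 CPM. Day 5 levels were 107, 131 and 148 CPM for WT and 126, 146 and 136 CPM for *Il6*-/-. Groups overlapped on both days, and the log2FC was 0.02 (SE 0.10, FDR = 0.95) and 0.09 (SE 0.10, FDR = 0.71). The change with day was 0.08 in WT (SE 0.10, FDR = 0.54) and 0.15 in *Il6*-/- (SE 0.10, FDR = 0.23). Under upper-quartile scaling, which moved the median of all genes upward with day, these became 0.27 (FDR = 0.036) and 0.37 (FDR = 0.0061), and with no scaling the latter was 0.30 (FDR = 0.027).

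*Tnfsf8* (chr4:63749542-63779592, minus strand) encodes CD30 ligand, which costimulates CD30+ T cells. On Day 3 its libraries stood at 57.4, 62.1 and 59.4 CPM for WT and 82.4, 68.7 and 69.6 CPM for *Il6*-/-, without overlap (log2FC 0.30, SE 0.13, FDR = 0.14). The FDR was 0.037 with no low-count filter, 0.025 with replicate number as a block and 0.036 in the 6 libraries of Day 3 alone. Levels on Day 5 were 198, 246 and 270 CPM for WT and 222, 223 and 298 CPM for *Il6*-/-, which overlapped (log2FC 0.06, SE 0.13, FDR = 0.85). After *Fasl*, *Tnfsf8* rose most with day, by 3.99-fold in WT (FDR = 2.8e-08) and 3.37-fold in *Il6*-/- (FDR = 4.3e-08).

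*Tnfsf14* and *Cd70* lie 39674 bases apart on chromosome 17, far from the *Lta* cluster. *Tnfsf14* (chr17:57496451-57501177, minus strand) encodes LIGHT, which binds HVEM and the lymphotoxin beta receptor, and its Day 3 levels were 15.3, 13.1 and 12.4 CPM for WT and 12, 12 and 10.4 CPM for *Il6*-/-. Day 5 libraries had 19.5, 26.3 and 26.3 CPM in WT against 25.0, 26.9 and 23.6 CPM in *Il6*-/-. The Day 3 groups did not overlap, although the log2FC of -0.25 (SE 0.14, FDR = 0.29) was not called, and on Day 5 they overlapped (0.06, SE 0.14, FDR = 0.85). With day it rose by 1.77-fold in WT (FDR = 1.3e-04) and 2.19-fold in *Il6*-/- (FDR = 5.6e-06). An uncounted RNA, Gm65552, shares 5.35% of its exon length on the other strand.

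*Cd70* (chr17:57452997-57456777, minus strand) encodes the ligand of CD27. It had 1 count in WT replicate 1 of Day 3 and 1 in *Il6*-/- replicate 1 of Day 5, and 0 in the other libraries. In the shallowest library a count of 0 is compatible with up to 3 counts, or 0.186 CPM over its unscaled total of counts on genes. This is a limit for counting error only, and no fold was computed.

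**Figure D4:**
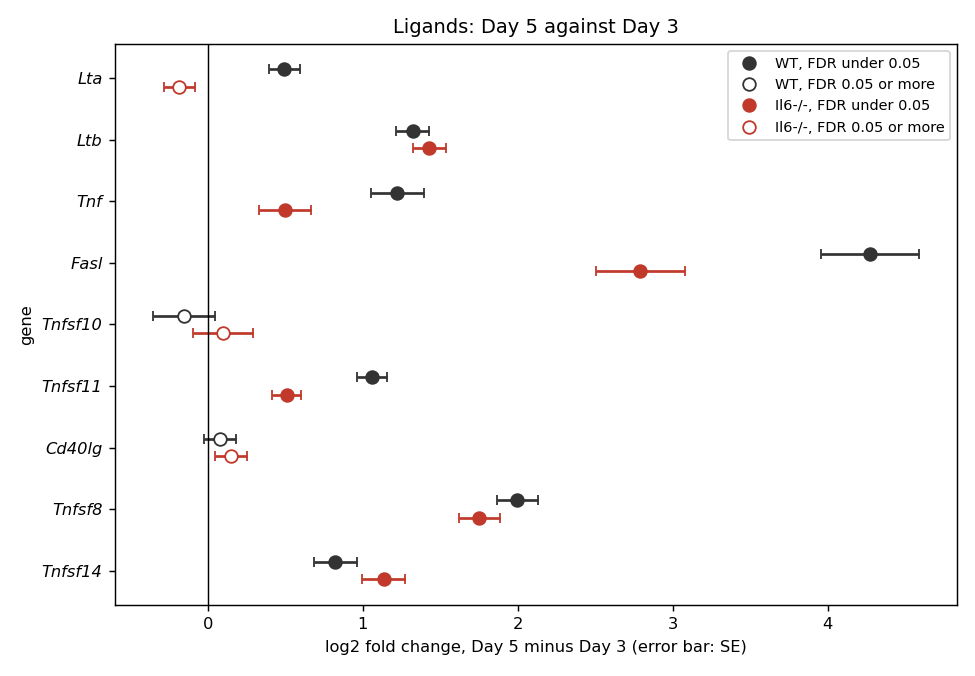
Log2 fold change of the 9 ligands tested, Day 5 minus Day 3 (x axis, error bars are SE), in WT (dark) and *Il6*-/- (red) recipients, with filled points at an FDR under 0.05. *Fasl* is farthest to the right (4.27 and 2.79), *Lta* is filled in WT (0.49) and open in *Il6*-/- (-0.18), and *Cd40lg* and *Tnfsf10* are open in both.

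Receptors of the 10 ligands, of which 9 of 13 were tested, moved in both directions on Day 3. Over all genes, 7.52% were called higher and 6.19% lower. Called higher in *Il6*-/- were 2: *Tnfrsf1b*, which encodes TNF receptor 2 (168 ± 6.39 CPM in WT, 221 ± 26.8 in *Il6*-/-, log2FC 0.39, FDR = 0.013), and *Tnfrsf8*, which encodes CD30 (28.4 ± 4.45 and 57.9 ± 3.23 CPM, log2FC 1.03, FDR = 0.043). Lower were 3: *Cd27* (121 ± 27.4 and 52.8 ± 9.22 CPM, log2FC -1.19, FDR = 1.3e-04), *Fas* (33.3 ± 5.00 and 19.1 ± 3.34 CPM, log2FC -0.80, FDR = 0.0056) and *Tnfrsf14*, which encodes HVEM (159 ± 6.39 and 118 ± 8.99 CPM, log2FC -0.43, FDR = 0.0035). These are SDs of 3 libraries. The median of the 9 was -0.33, against 0.01 over all genes. *Fasl* was higher and *Fas* lower in the same *Il6*-/- libraries on Day 3, and *Tnfsf8* was not called while its receptor was.

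On Day 5, 2 receptors were called, where 1.27% of all genes were called higher and 3.35% lower. Both were higher in *Il6*-/-: *Tnfrsf1b* (130 ± 5.03 and 218 ± 23.2 CPM, log2FC 0.75, FDR = 0.0011) and *Tnfrsf8* (4.89 ± 2.87 and 12.8 ± 6.54 CPM, log2FC 1.37, FDR = 0.046), whose groups overlapped. *Cd27* (-0.48, FDR = 0.069) and *Fas* (-0.42, FDR = 0.15) were not called. In the interaction 0 of 9 receptors were called by edgeR, where 4.92% of all genes were called. At an unadjusted p under 0.05 there were 4, and the largest of these p (0.045) ranked 2632 among the 13570 genes. With day, 4 of 9 rose and 2 fell in WT, where 29.5% of all genes rose and 27.1% fell, and 5 rose and 1 fell in *Il6*-/-, where 30.4% rose and 30.1% fell. The steepest fall was that of *Tnfrsf8* (log2FC -2.53 in WT and -2.18 in *Il6*-/-), opposite in direction to its ligand *Tnfsf8*, and *Cd27* rose (1.00 and 1.72) while its ligand *Cd70* had 2 counts in all. *Ltbr*, *Cd40* and *Tnfrsf11a*, the receptors of lymphotoxin beta, CD40 ligand and RANKL, had at most 10 counts in a library.

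**Figure D5:**
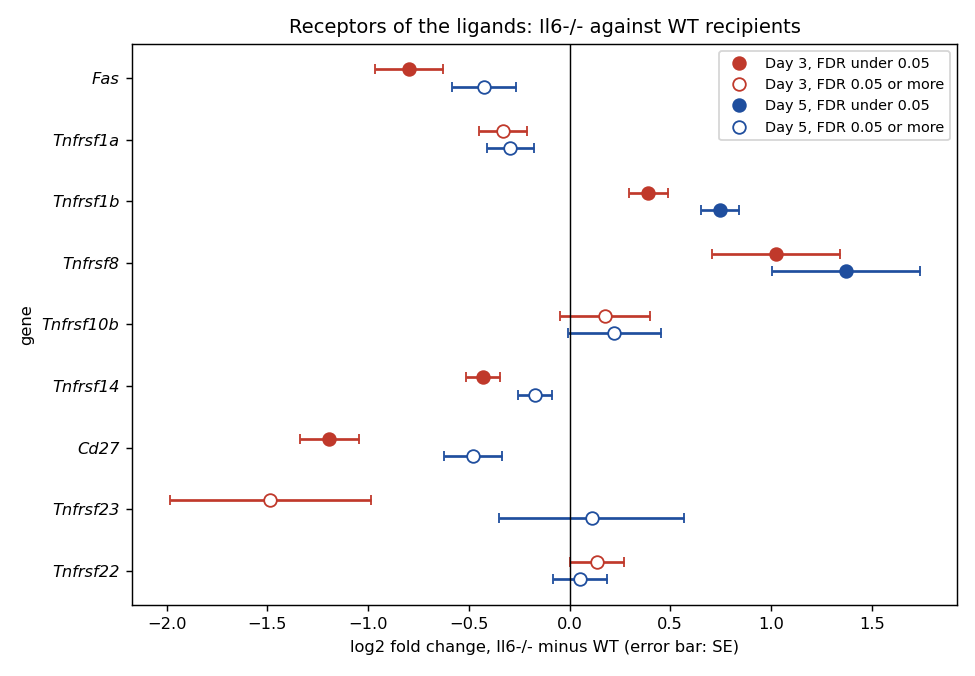
Log2 fold change of the 9 receptors tested, *Il6*-/- minus WT (x axis, error bars are SE), on Day 3 (red) and Day 5 (blue), with filled points at an FDR under 0.05. *Tnfrsf1b* and *Tnfrsf8* are filled to the right on both days, and *Fas*, *Tnfrsf14* and *Cd27* are filled to the left on Day 3.

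Other ligands of the family, 8 in all, were mostly low, and 3 were tested. None of the 3 was called between recipients by edgeR on either day. At an unadjusted p under 0.05 there was 1 on Day 3 (0.043, ranked 3457 among the 13570 genes) and 0 on Day 5. *Tnfsf4*, which encodes OX40 ligand, rose with day from 0.963 ± 0.154 to 15.5 ± 2.00 CPM in WT (log2FC 4.02, FDR = 8.5e-08) and from 1.12 ± 0.379 to 12 ± 4.87 CPM in *Il6*-/- (log2FC 3.43, FDR = 2.3e-07). In WT, *Tnfsf13b* (BAFF, log2FC 0.89) and *Tnfsf9* (4-1BB ligand, 0.55) also rose.

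Among 13 receptor adaptors and death signaling genes, 0 were called between recipients on Day 3 by edgeR, where 7.52% of all genes were called higher and 6.19% lower. At an unadjusted p under 0.05 there were 2, the larger of which (0.044) ranked 3487 among the 13570 genes. On Day 5, 1 was called, *Traf5* (90.8 ± 5.14 CPM in WT, 112 ± 3.59 in *Il6*-/-, log2FC 0.30, FDR = 0.045), where 1.27% of all genes were called higher and 3.35% lower. With day, 6 of 13 rose and 5 fell in WT, and 8 rose and 5 fell in *Il6*-/-, against all-gene shares of 29.5% and 27.1% in WT and 30.4% and 30.1% in *Il6*-/-. The smallest p in WT were those of *Traf1* (log2FC 0.74), *Birc3* (0.65), *Map3k14* (0.77) and *Birc2* (0.59), all higher on Day 5. The 5 that fell in WT were *Fadd* (-0.54), *Ripk1* (-0.43), *Traf6* (-0.42), *Traf3* (-0.27) and *Casp8* (-0.25).

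Of 11 genes for ligand shedding and mRNA decay, 1 was called higher and 2 lower in *Il6*-/- on Day 3. The shares over all genes were 7.52% higher and 6.19% lower. Higher was *Rhbdf1* (1.20 ± 0.547 CPM in WT, 3.78 ± 0.540 in *Il6*-/-, log2FC 1.66, FDR = 0.032), which encodes iRhom1, a partner of the TNF-shedding protease ADAM17. Lower were *Zfp36* (152 ± 37.0 and 78.9 ± 15.6 CPM, log2FC -0.94, FDR = 0.0017) and *Zfp36l2* (42.5 ± 7.97 and 25.7 ± 4.60 CPM, log2FC -0.73, FDR = 0.011), which encode proteins that bind AU-rich elements, and *Zfp36* is known to destabilize *Tnf* mRNA. On Day 5, *Zfp36l2* was lower (110 ± 13.8 and 57.1 ± 11.2 CPM, log2FC -0.94, FDR = 0.0052) and was the 1 gene of the list called. Of all genes, 1.27% were called higher and 3.35% lower on that day. With day, 5 of 11 rose and 3 fell in each genotype, where 29.5% of all genes rose and 27.1% fell in WT and 30.4% and 30.1% in *Il6*-/-. *Zfp36l1* (log2FC 1.65 in WT, 1.31 in *Il6*-/-) and *Zfp36* (1.22 and 1.75) were higher on Day 5, whereas *Ptbp1*, whose product binds and stabilizes *Cd40lg* mRNA, fell in both (log2FC -0.94 in *Il6*-/-).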

How the data were processed

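RNA-seq libraries of sorted OTII cells were analyzed, 12 in 4 groups of 3 assigned from GEO's labels. Per the methods and the submitters' processing notes, polyA RNA was sequenced as single-end reads, trimmed with Trim Galore 0.4.4, aligned to GRCm39 with STAR 2.5.2a and counted without regard to strand with HTSeq 0.6.1p1. The trimming options named are for paired-end reads, which does not match the single-end reads. The values deposited by the authors are raw counts for 40840 gene symbols per library. A second deposited table holds the authors' log2 CPM of 11258 genes. It has 9 of the 10 ligands (not *Cd70*) and was used only in an alternative. No column lacked a sample. Reads in no gene (11.7% to 17.3%), reads in more than 1 gene (1.96% to 2.28%) and reads mapped to several places (23.7% to 28.2%) were kept out of the library sizes and tests. On-gene depth is given with the results, and intervals there cover counting error only.

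Counts were fitted in R 4.3.3 with edgeR 4.0.16 (filterByExpr, TMM, glmQLFit, glmQLFTest) in 1 model of all 12 libraries with 1 coefficient per group. The filter kept 13570 genes. SEs were taken from the F statistic and the log2FC. A single gene's exact permutation test of 3 against 3 libraries cannot go below p = 0.1 and was not used. The scripts were tested on simulated data. Every pair of libraries within a group differed by more than sampling noise.

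The alternatives were 3 other choices of scaling (RLE, upper-quartile, none), limma-voom (limma 3.58.1), DESeq2 1.42.0, 2 other low-count rules (none, or over 1 CPM in at least 3 libraries), the libraries of the compared groups alone, replicate number as a block, a 2-fold limit, and each library left out. Limma-trend on the deposited table was chosen after seeing the data. The ligands and lists were chosen with earlier results of these data known. The text names all 10 ligands, at most 4 called genes with the smallest p from each other TNF list, marker genes beside a result, and genes that overlap or adjoin a ligand. The adaptors that fell with day, *Ltbr*, *Cd40*, *Tnfrsf11a*, *Tnfrsf8* on Day 3, *Cd27* and *Fas* on Day 5 and the markers were named after their values were seen.

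The labels give the same replicate numbers in each group. Deviations of same-numbered WT and *Il6*-/- libraries from their group means correlated at 0.243, 0.206 and 0.129 on Day 5, so the numbers were taken to pair the libraries of that day, and at 0.0325 to 0.0599 on Day 3, where they were not. Between days within a genotype the correlations were -0.0710 to 0.0707. Gene positions are from GENCODE vM39 on GRCm39, and upstream sequences from RefSeq.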

Additional observations from a re-analysis of the deposited data

Results flagged for a closer look

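The change between recipients differed between the days for 2 of the 9 ligands, by the interaction term of the edgeR fit, in which 4.92% of all genes were called. For *Lta*, the log2FC of *Il6*-/- minus WT was larger on Day 3 than on Day 5 by 0.68 (SE 0.14, FDR = 0.015), and for *Tnfsf11* by 0.55 (SE 0.13, FDR = 0.030). With 1 library left out, the call was lost in 2 of 12 fits for *Lta* and in 5 of 12 for *Tnfsf11*. In all 3 *Il6*-/- libraries of Day 3, both transcripts were above all 3 WT libraries of that day. No test of outlying libraries was run, since each group has 3.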

How the results depend on the processing

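Of 765 values of single ligands under the alternatives, 704 kept their direction and their side of the threshold, 22 lost the call, 24 gained it and 15 changed sign. Of 90 counts of ligands called, 19 moved by over 1.5 times. Shares of all genes called were computed for the main fit and the 2-fold limit only. Counts under the other alternatives therefore have no all-gene share beside them. With the 2-fold limit, 1.14% of all genes were called on Day 5 and 1.38% in the interaction. On Day 3 (3 called), 5 were called with no low-count filter and 6 with the replicate block, which added *Ltb*, *Tnf* and *Tnfsf8*, and 2 to 3 with a library left out. On Day 5 (1 called), 0 were called with a 2-fold limit or in the 2 groups alone, 2 with no low-count filter, DESeq2 or the replicate block, and 0 to 1 with a library left out. In the interaction (2 called), 0 were called with a 2-fold limit, 1 with no scaling, 4 with no low-count filter or the replicate block (adding *Fasl*, log2FC 1.55, FDR = 0.0046, and *Tnf*, 0.72, FDR = 0.013), and 0 to 3 with a library left out. It could not be fitted in 2 groups alone, since it needs all 4. The numbers were taken to pair the libraries of Day 5 only, although on Day 3 too each of the 6 libraries correlated best with its own number, a hint from the data and not the design. Between days 2 of 6 did so in WT and 0 of 6 in *Il6*-/-. For the changes with day, counts in either direction stayed at 7 in WT and 5 to 7 in *Il6*-/- with a library left out, and the block moved neither by over 1.5 times. The 7 in *Il6*-/- included *Lta*, called lower on Day 5 without replicate 3 of Day 3.

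Changes of sign befell only values that were not called. For *Cd40lg*, the Day 3 log2FC was -0.023 with upper-quartile scaling, -0.038 with no scaling, -0.012 in the 2 groups alone and -0.045 to 0.070 with a library left out. With a library left out, its Day 5 value was -0.027 to 0.20, its interaction -0.18 to 0.044 and its change with day in WT -0.037 to 0.19. On the same terms, Day 5 values were -0.094 to 0.16 for *Tnfsf8* and -0.065 to 0.13 for *Tnfsf14*, the interaction of *Ltb* was -0.28 to 0.041, and the change of *Tnfsf10* with day in *Il6*-/- was -0.043 to 0.26. With upper-quartile scaling, which moved the median of all genes up by 0.20 in WT and 0.23 in *Il6*-/- between the days, the change with day was 0.045 for *Tnfsf10* in WT and 0.046 for *Lta* in *Il6*-/-. No scaling moved that median by 0.15 in *Il6*-/-. Where no construction shows it, the cause was not tested. Depth limits *Cd70* and, on Day 3, *Fasl*.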
